A study of Mus musculus with 8 samples.

Results

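Splenocytes of Sle1.3/E2-2het mice were compared with splenocytes of wild-type mice (WT). The arrays were chosen by their titles: 3 arrays titled Sle1.3/het (replicates 1, 2 and 3) and both arrays titled Wild Type, 5 of the 8 arrays in the series. Per the labels, every mouse had the C57/B6 strain background. The WT mice carried neither genetic change. The Sle1.3/E2-2het mice carried the Sle1.3 lupus background and were haplodeficient for E2-2, and the series title describes their plasmacytoid dendritic cells as not functional. Because the WT mice lacked both changes, what belongs to Sle1.3 and what to the E2-2 dose cannot be told apart here. Both WT mice and replicates 1 and 2 of Sle1.3/E2-2het were labelled male, and replicate 3 was labelled female. Ages, littermate status and disease stage are not given in the sources used here. Spleens were digested with collagenase and DNase I, RNA was taken from the same number of cells per mouse, and 250 ng of it was labelled for an Affymetrix Mouse Gene 1.0 ST array, which reads a gene through probes along its whole transcript.

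E2-2 is a helix-loop-helix transcription factor of the E protein family, encoded by Tcf4. It is required for the formation and identity of plasmacytoid dendritic cells, the blood and spleen cells that sense nucleic acids through endosomal Toll-like receptors and release large amounts of type I interferon. Sle1 and Sle3 are lupus-susceptibility intervals of chromosomes 1 and 7, which in C57/B6 mice bring autoantibodies, an enlarged spleen and activated lymphocytes. The mouse spleen also makes blood cells: its red pulp holds red cell precursors, granulocyte precursors and macrophages that take up old red cells. An array of all splenocytes measures their mixture, so a larger number of cells of a type and more RNA per cell cannot be told apart in any value below.

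All values are log2 of the deposited linear intensity, and a difference is Sle1.3/E2-2het minus WT on that scale. The lowest linear intensity of an array was 4.57 to 5.11 in 4 arrays and 11.2 in Sle1.3/E2-2het replicate 3, whose median was also the highest (6.17 against 5.83 to 5.95). Over all genes tested, replicate 3 lay a median 0.31 above the mean of replicates 1 and 2. The interquartile range of probe set values was 2.77 and 2.97 in the WT arrays and 2.41 to 2.46 in the 3 Sle1.3/E2-2het arrays, so the WT arrays had the wider spread. For most lists, counts of calls are therefore also given for replicates 1 and 2 alone and for quantile-normalised values, where all arrays share 1 distribution, and a called gene named below that was no longer called after quantile normalisation is said to be so. The lymphocyte markers of spleen were high on every array: Ms4a1, which encodes the B cell antigen CD20, lay between 10.79 and 11.17, and Cd3e, a subunit of the T cell receptor complex, between 8.85 and 10.06. The sex-linked genes matched the labelled sex. Xist, the RNA of the inactive X chromosome, was 4.12 and 3.75 in WT and 3.79, 4.29 and 11.82 in replicates 1, 2 and 3. The Y-linked gene Eif2s3y was 8.72 and 8.94 in WT and 8.03, 8.61 and 3.84 in replicates 1, 2 and 3.

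Of 14953 genes tested with limma, 634 were higher in Sle1.3/E2-2het (4.24% of those tested) and 483 lower (3.23%) at a Benjamini-Hochberg adjusted p below 0.05. The WT and Sle1.3/E2-2het values did not overlap in 1116 of these 1117 genes. Among all genes tested, the 3 Sle1.3/E2-2het values lay above both WT values in 25.7% and below both in 23.3%. At an unadjusted p below 0.05, 2062 genes were higher and 2159 lower. With replicates 1 and 2 alone, 1468 genes were higher (9.82%) and 3290 lower (22.0%), and the counts of list members in this fit are to be read against those shares. Each of the 1117 calls was among these, in the same direction. With quantile normalisation, 431 were higher (2.88%) and 299 lower (2.0%), of which 313 and 218 were also called on the deposited values. Quantile normalisation of replicates 1 and 2 with WT called 6.07% higher and 4.88% lower. Both WT arrays were needed for most calls: without WT replicate 1, 29 genes were higher and 4 lower, and without WT replicate 2, 2 were higher and none lower. In those fits a lone WT array is assumed to vary like the other group. Of the gene lists below, the neutrophil, erythroid and immediate early lists had 4, 5 and 1 called members without WT replicate 1, the other lists had none, and no list had any without WT replicate 2.

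The difference moved with the level of a gene. Genes were split into 4 equal groups by their mean over the 5 arrays. The median difference was 0.32 in the dimmest group, 0.14 in the next, -0.24 in the one after and -0.28 in the brightest. In the dimmest group 326 genes were called higher and 12 lower, and in the brightest 67 were higher and 197 lower. After quantile normalisation the 4 medians lay between -0.05 and -0.01, and the brightest group had 125 genes higher and 66 lower. Receptors of smell, pheromone and taste cells made up 290 of the 634 higher genes, a family chosen after its values were seen. Of 448 such receptors tested, 290 were called higher (64.7%) and none lower, with a median level of 4.85 in WT and 5.86 in Sle1.3/E2-2het. That WT level lies below the filter for testing, a mean of 4.97 over all 5 arrays. A gene with a WT mean below 4.97 was tested only if its Sle1.3/E2-2het values were higher. The share called higher and the lack of lower calls, here and in the dimmest group, thus depend in part on the filter. With quantile normalisation 150 of the 448 were called higher. Without these receptors, 344 genes were higher and 483 lower of 14505 tested, and it is among these that the splenic genes below lie. The part that array spread plays in calls near the intensity floor was not tested.

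**Figure D1:**
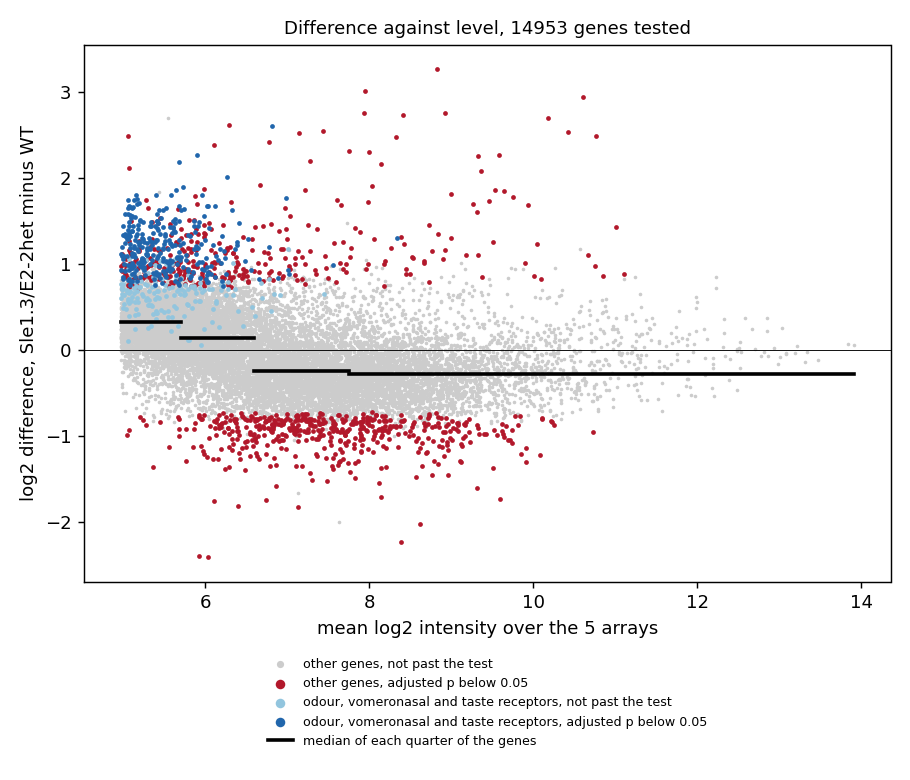
Difference (Sle1.3/E2-2het minus WT, log2) against the mean log2 intensity over the 5 arrays, 1 point for each of 14953 genes tested. Red and dark blue points have an adjusted p below 0.05, blue points are odour, vomeronasal and taste receptors, and black lines are the medians of the 4 level groups, which fall from 0.32 to -0.28. Receptors crowd at the dim end above 0, while the splenic genes with the largest differences lie at levels of 6 to 11.

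The largest differences upwards were in genes of neutrophil granules and red cell precursors. Camp, which encodes the antimicrobial granule peptide cathelicidin, was 7.04 and 6.69 in WT and 11.11, 9.39 and 9.90 in Sle1.3/E2-2het, 9.62-fold apart (3.27, SE 0.36, adjusted p = 0.00024 with limma). Car2, the carbonic anhydrase of red cells, was 7.33 and 7.21 in WT and 10.43, 10.12 and 9.53 in Sle1.3/E2-2het (2.76, SE 0.26, adjusted p = 7.9e-05). All Sle1.3/E2-2het arrays were far above both WT arrays in each of these genes, and replicate 1 was the highest. The other high members of those groups were Ltf (3.01), Ngp (2.95), Ly6g (2.76), Car1 (2.70), Cldn13 (2.61), S100a8 (2.53) and Chil3 (2.53). Tmem267, a membrane protein gene on chromosome 13, differed from them in pattern: it was 6.65 and 6.90 in WT and 9.47, 9.40 and 9.66 in Sle1.3/E2-2het, nearly level within each group. Its difference of 2.73 (SE 0.22) had an adjusted p of 2.1e-05. The gap between its lowest Sle1.3/E2-2het value and its highest WT value, 2.49, was the widest of all genes tested. The remaining high genes were Vmn2r-ps104 (2.60), a vomeronasal receptor pseudogene whose close copies may share its probes, and the unnamed gene G530011O06Rik (2.54).

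The genes with the largest differences downwards came from several processes. Plk2, a stress-induced kinase, was 7.10 and 7.62 in WT and 4.87, 4.96 and 5.05 in Sle1.3/E2-2het (-2.40, SE 0.23, adjusted p = 7.9e-05). Cpm, a carboxypeptidase of the cell surface, was 9.80 and 9.64 in WT and 7.24, 7.27 and 7.97 in Sle1.3/E2-2het (-2.23, SE 0.25, adjusted p = 0.00024). Spib, which encodes an Ets-family factor of B cells and plasmacytoid dendritic cells, was 10.86 and 10.40 in WT and 8.76, 8.67 and 9.27 in Sle1.3/E2-2het. Its difference was -1.73 (SE 0.25, adjusted p = 0.00116), a 3.33-fold lower level. In these genes replicate 3 was the nearest of the Sle1.3/E2-2het arrays to WT, and the groups did not overlap, as the choice of genes required. Slc1a5, a glutamine transporter, differed by -2.02, Penk, the enkephalin precursor, by -1.83, and Pmepa1, an inhibitor of TGF-beta signalling, by -1.71. Phlpp1, a phosphatase of the kinase Akt, differed by -1.58, and the zinc-finger gene Zfp456 by -1.75. Thbs1, the platelet and matrix protein thrombospondin, differed by -1.61 (adjusted p = 0.00534), but its adjusted p was 0.0518 after quantile normalisation. The Y-linked Kdm5d was also called lower (-1.82, adjusted p = 0.0267), with 4.24 in the female replicate 3. It remained below WT in the male replicates, at 6.26 and 6.50 against 7.40 and 7.58 (difference in replicates 1 and 2 -1.11, adjusted p = 0.000475). With all 3 replicates its adjusted p was 0.184 after quantile normalisation.

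**Figure D2:**
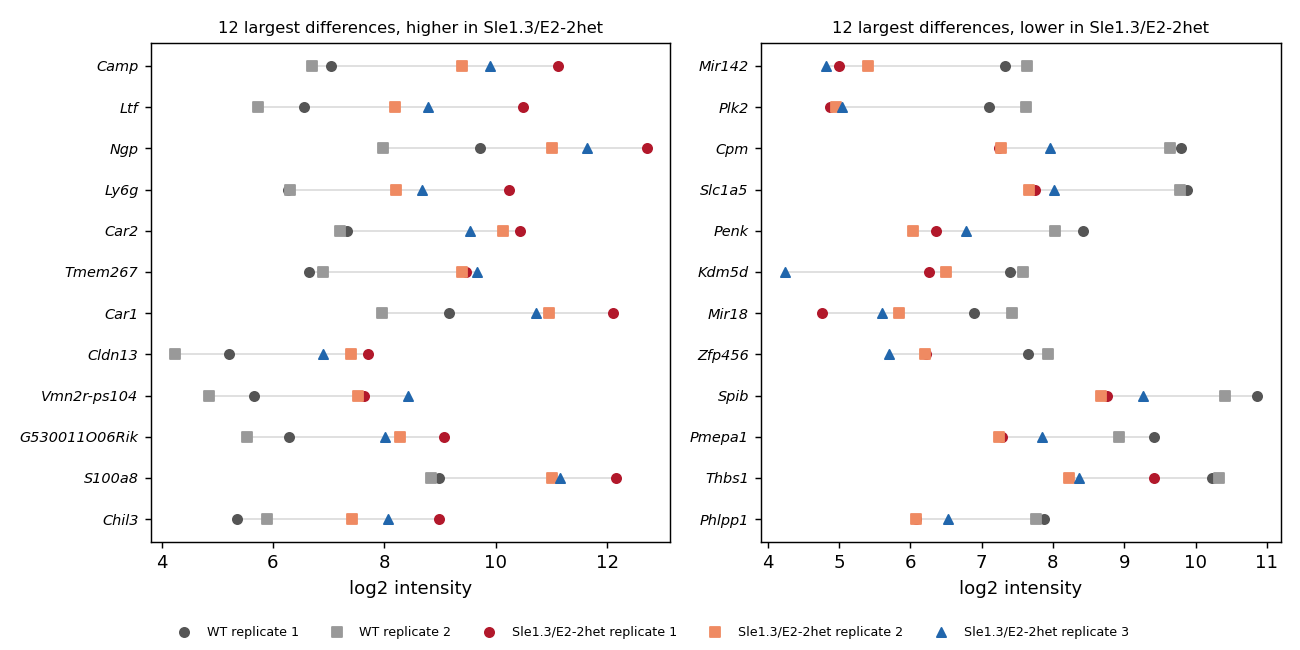
Log2 intensity on each of the 5 arrays for the 12 genes with the largest differences upwards and the 12 with the largest downwards among the genes called. Each point is 1 array. Only called genes whose groups do not overlap were eligible, so the separation of WT from Sle1.3/E2-2het in every gene follows from the choice. Replicate 1 leads in the neutrophil genes.

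The microRNA genes Mir142 and Mir18 were among the 12 genes with the largest differences downwards, and Mir680-1 and Mir680-2 were the microRNA genes that rose most. The mature sequences, from RefSeq on GRCm38.p6, are given with the seed (bases 2 to 8, which pair with targets) in capitals.
mmu-miR-142a-5p: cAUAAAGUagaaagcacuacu
mmu-miR-142a-3p: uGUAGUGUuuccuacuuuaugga
mmu-miR-18a-5p: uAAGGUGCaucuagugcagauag
mmu-miR-18a-3p: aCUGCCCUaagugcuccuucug
mmu-miR-680, of both Mir680-1 and Mir680-2: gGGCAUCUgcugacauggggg

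The array probes lie in the hairpin or its host transcript, so the values are not levels of these mature RNAs. Mir142, the blood-cell microRNA gene, was 7.33 and 7.64 in WT and 5.01, 5.40 and 4.82 in Sle1.3/E2-2het (-2.41, SE 0.24, adjusted p = 9.6e-05). Mir18, a member of the growth-promoting cluster that also holds Mir17, was 6.89 and 7.42 in WT and 4.76, 5.84 and 5.61 in Sle1.3/E2-2het (-1.76, SE 0.29, adjusted p = 0.00282). Both were lower on every Sle1.3/E2-2het array, replicate 3 included, and neither shares its seed with the other. Mir680-1 was 7.12 and 6.58 in WT and 8.84, 8.85 and 9.35 in Sle1.3/E2-2het (2.16, SE 0.25, adjusted p = 0.00024). Mir680-2 was 8.35 and 7.88 in WT and 10.08, 9.98 and 10.54 in Sle1.3/E2-2het (2.09, SE 0.24, adjusted p = 0.000283). The 2 loci, on chromosomes 6 and X, give the same mature sequence, so their probes may read the same RNA, and the 2 signals cannot be told apart. Of 116 microRNA genes tested, 13 were higher and 4 lower, against 4.24% and 3.23% of all genes. Their median difference was 0.39, against -0.01 over all genes and 0.32 in the dimmest level group. In that group 326 of 3739 genes were higher. The part that level plays in the microRNA differences was not tested. The microRNA counts were 31 higher and 9 lower in replicates 1 and 2 alone and 17 and 4 after quantile normalisation.

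Neutrophil granule genes were among the groups that rose most often. Of 27 members tested, 20 rose, none fell and 7 did not pass, with a median difference of 1.72 against -0.01 over all genes. These proteins are made in granulocyte precursors in a set order, first the azurophil granule proteases and then the specific and gelatinase granule proteins. Among the azurophil proteins, Elane, neutrophil elastase, was 6.75 and 5.98 in WT and 9.38, 8.14 and 8.53 in Sle1.3/E2-2het (difference 2.32, SE 0.32, adjusted p = 0.00102). Mpo, myeloperoxidase, was 5.48 and 5.08 in WT and 8.16, 6.29 and 6.55 in Sle1.3/E2-2het (1.72, SE 0.40, adjusted p = 0.0174). Among the specific granule proteins, Ltf, the iron-binding lactoferrin, was 6.56 and 5.74 in WT and 10.49, 8.19 and 8.79 in Sle1.3/E2-2het (3.01, SE 0.46, adjusted p = 0.00182). Early and late granule genes were thus both higher, and in each of these 3 genes replicate 1 was highest and replicate 2 lowest of the 3. Ngp, neutrophilic granule protein, was 9.71 and 7.98 in WT and 12.71, 11.01 and 11.64 in Sle1.3/E2-2het (2.95, SE 0.45, adjusted p = 0.0018). The surface antigen gene Ly6g, whose family has close copies, was 6.26 and 6.30 in WT and 10.23, 8.21 and 8.68 in Sle1.3/E2-2het (2.76, SE 0.40, adjusted p = 0.00137). Of the cytosolic proteins, S100a8, a calprotectin subunit, was 8.98 and 8.83 in WT and 12.15, 11.00 and 11.14 in Sle1.3/E2-2het (2.53, SE 0.29, adjusted p = 0.000283). With replicates 1 and 2 alone, 22 members rose, and 17 rose with quantile normalisation, where Mpo did not pass (adjusted p = 0.12). Without replicate 1 the median was 1.14, with 19 members higher.

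The 250 bases before the start of 19 of the 20 genes that rose were searched on both strands for the C/EBP-like letters TTGCNNAA. They occurred in 8 of the 19, in 8 of 23 tested list members with a window and in 10.8% of 27025 genes with such a window. C/EBP factors are regulators of granule genes, and a match of letters is not a bound site. The windows of Ngp and Ltf, from RefSeq on GRCm38.p6, are shown as examples with a match. Camp, the largest difference of the list, was not among the 8 genes with the letters. Capitals mark the match.
Ngp, chr9:110419558-110419807, plus strand: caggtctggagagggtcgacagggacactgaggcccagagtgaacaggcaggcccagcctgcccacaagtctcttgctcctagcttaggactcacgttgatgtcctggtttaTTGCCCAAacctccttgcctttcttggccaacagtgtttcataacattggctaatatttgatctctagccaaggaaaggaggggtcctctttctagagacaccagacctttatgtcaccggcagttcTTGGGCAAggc
Ltf, chr9:111019042-111019291, plus strand: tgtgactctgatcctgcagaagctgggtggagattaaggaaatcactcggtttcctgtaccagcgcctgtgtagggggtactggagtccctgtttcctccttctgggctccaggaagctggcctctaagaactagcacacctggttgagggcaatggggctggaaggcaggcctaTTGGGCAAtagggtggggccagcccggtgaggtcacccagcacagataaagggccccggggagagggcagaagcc

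Red cell precursor genes formed the next group. Of 26 members tested, 17 rose, none fell and 9 did not pass, with a median difference of 1.21. The band 3 anion exchanger gene Slc4a1, whose product anchors the red cell skeleton to the membrane, was 7.16 and 6.52 in WT and 9.63, 9.48 and 8.85 in Sle1.3/E2-2het (2.48, SE 0.27, adjusted p = 0.000237). Rhag, the Rh-associated membrane protein, was 4.98 and 4.37 in WT and 7.59, 7.56 and 6.02 in Sle1.3/E2-2het (2.38, SE 0.37, adjusted p = 0.00191). Kel, the Kell blood group protein, was 5.84 and 5.21 in WT and 7.72, 7.81 and 6.79 in Sle1.3/E2-2het (1.91, SE 0.30, adjusted p = 0.00182). In these 3 genes replicate 3 lay between WT and replicates 1 and 2, whereas Ermap, another red cell membrane gene, was nearly level at 7.58, 7.68 and 7.66 against 6.08 and 5.89 in WT. Alas2, the first enzyme of haem synthesis in red cells, was 6.74 and 6.50 in WT and 10.13, 8.61 and 8.0 in Sle1.3/E2-2het (2.30, SE 0.42, adjusted p = 0.00484). Car1, another carbonic anhydrase of red cells, was 9.15 and 7.96 in WT and 12.11, 10.95 and 10.72 in Sle1.3/E2-2het (2.70, SE 0.38, adjusted p = 0.00105). Among the regulators, Gata1 was 5.14 and 4.88 in WT and 5.96, 5.76 and 6.35 in Sle1.3/E2-2het (1.01, SE 0.23, adjusted p = 0.0176). Klf1, which activates globin genes, was 5.36 and 5.05 in WT and 6.37, 6.04 and 6.04 in Sle1.3/E2-2het (0.95, SE 0.22, adjusted p = 0.0195). The transferrin receptor gene Tfrc, used by many dividing cells, was not called (0.37, adjusted p = 0.299). The globin genes of the list were not analysed here. In replicates 1 and 2 alone 23 members rose, and 10 rose with quantile normalisation, without Rhag, Gata1 and Klf1 (adjusted p = 0.0512, 0.0512 and 0.0896).

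The GATA letters AGATAA, on either strand, occurred before 5 of the 12 higher erythroid genes with a window. They occurred before 7 of 19 tested list members with a window and before 11.4% of all genes. The windows of Kel and Alas2, from RefSeq on GRCm38.p6, are shown as examples of a membrane and a haem gene, with the match in capitals. In Alas2 it lies on the opposite strand.
Kel, chr6:41704326-41704575, minus strand: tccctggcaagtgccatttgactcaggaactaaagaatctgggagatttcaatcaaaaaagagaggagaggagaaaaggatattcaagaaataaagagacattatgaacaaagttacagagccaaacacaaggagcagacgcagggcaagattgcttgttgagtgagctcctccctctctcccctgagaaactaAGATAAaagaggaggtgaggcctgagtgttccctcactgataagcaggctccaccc
Alas2, chrX:150547167-150547416, plus strand: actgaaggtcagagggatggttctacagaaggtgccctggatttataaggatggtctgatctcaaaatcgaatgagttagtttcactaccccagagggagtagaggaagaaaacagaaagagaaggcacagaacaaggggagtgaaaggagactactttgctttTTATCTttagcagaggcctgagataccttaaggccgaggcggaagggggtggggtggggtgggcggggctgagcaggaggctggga

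Macrophage genes of the red pulp rose in part. Of 24 members of the splenic macrophage list tested, 10 rose and none fell (median 0.76). Slc40a1, the iron exporter ferroportin, was 6.22 and 6.91 in WT and 8.63, 8.42 and 7.86 in Sle1.3/E2-2het (1.74, SE 0.27, adjusted p = 0.00182). Hmox1, the haem-degrading oxygenase, was 7.96 and 8.48 in WT and 9.88, 8.74 and 9.53 in Sle1.3/E2-2het (1.17, SE 0.29, adjusted p = 0.0276). Spic, the factor required for red pulp macrophages, was 6.61 and 7.46 in WT and 8.34, 7.94 and 7.83 in Sle1.3/E2-2het (1.01, SE 0.27, adjusted p = 0.0323). Replicate 1 was the highest in each of these 3 genes. Of the 24 members, 13 lay above WT on all 3 arrays, as did 25.7% of all genes tested. The scavenger lectin genes Fcna (1.28, adjusted p = 0.00778) and Mrc1 (1.17, adjusted p = 0.0197, and 0.0541 after quantile normalisation) also rose. Of the complement list, 3 of 15 members rose and 1 fell (median 0.59). The 3 that rose are also members of the macrophage list and are counted among its 10. The 3 were the chains of C1q, the molecule that clears immune complexes and dying cells: C1qb (1.3, adjusted p = 0.0135), C1qc (1.23, adjusted p = 0.019) and C1qa (0.97, adjusted p = 0.0475). C1qb was 7.90 and 8.53 in WT and 9.86, 8.93 and 9.77 in Sle1.3/E2-2het. The complement regulator Cr1l fell (-1.07, adjusted p = 0.00876). With replicates 1 and 2 alone, 13 macrophage members rose and complement had 5 higher and 2 lower. With quantile normalisation 8 macrophage members rose and complement had 4 higher and 1 lower.

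Part of the cell division genes rose, by less than the granule genes. Of 37 members tested, 11 rose and none fell (median 0.46). Ccna2, cyclin A, was 7.55 and 7.56 in WT and 9.02, 8.51 and 8.71 in Sle1.3/E2-2het (1.19, SE 0.22, adjusted p = 0.00581). Rrm2, the ribonucleotide reductase subunit that supplies DNA precursors, was 7.01 and 7.12 in WT and 8.55, 8.15 and 8.07 in Sle1.3/E2-2het (1.19, SE 0.23, adjusted p = 0.00577). Mki67, the marker of cycling cells, was 8.42 and 8.12 in WT and 9.59, 9.09 and 9.28 in Sle1.3/E2-2het (1.05, SE 0.23, adjusted p = 0.013). The groups did not overlap in these genes, and the WT arrays lay close together. Prc1, of the spindle midzone, rose by 1.02, Cdc6, which loads the replication helicase, by 1.01, and Tyms, thymidylate synthase, by 1.00. Top2a, the DNA topoisomerase of dividing cells, did not pass (0.63, adjusted p = 0.0789). In replicates 1 and 2 alone 18 members rose and 1 fell. With quantile normalisation 8 rose, and Prc1 and Cdc6 did not pass (adjusted p = 0.0872 and 0.0695). The fit without replicate 1 had 7 higher and 1 lower.

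**Figure D3:**
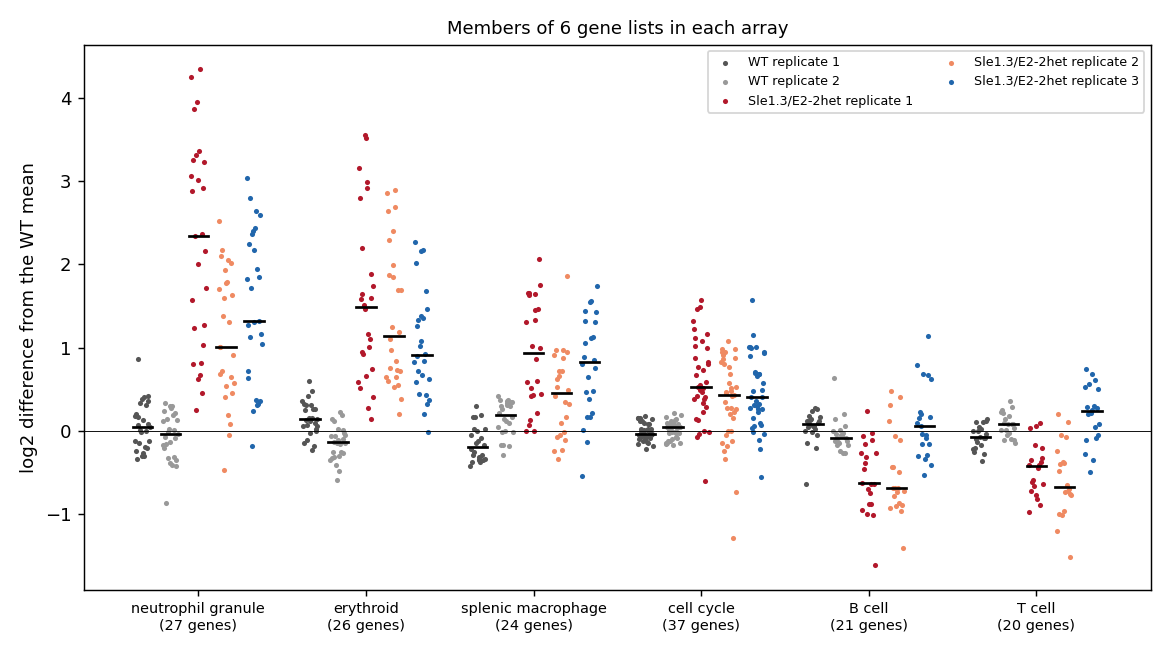
Log2 difference from the WT mean for every tested member of 6 gene lists on each of the 5 arrays. Each point is 1 gene on 1 array and each black line is the median of a list on that array. Neutrophil and erythroid members lie mostly above 0 on all 3 Sle1.3/E2-2het arrays, while B cell and T cell medians lie below 0 in replicates 1 and 2 and above 0 in replicate 3.

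Other myeloid cells showed fewer changes. Among 15 eosinophil, basophil and mast cell genes tested, 4 rose and 1 fell (median 0.56). Ccr3, the eotaxin receptor of eosinophils, was 5.79 and 6.35 in WT and 7.86, 7.41 and 7.10 in Sle1.3/E2-2het (1.39, SE 0.26, adjusted p = 0.00548). Prss34 (1.19, adjusted p = 0.00594) and Mcpt8 (0.98, adjusted p = 0.0289), both basophil proteases, also rose, as did Ear6 (1.16, adjusted p = 0.0311), a member of a ribonuclease family with near-identical copies. Il5ra, the interleukin-5 receptor chain of eosinophils and of some B cells, went the other way: it was 7.35 and 7.49 in WT and 6.05, 6.42 and 5.96 in Sle1.3/E2-2het (-1.27, SE 0.22, adjusted p = 0.00403). After quantile normalisation Ear6 and Mcpt8 no longer passed (adjusted p = 0.173 and 0.223). Of 26 monocyte genes tested, 2 rose (median 0.34): Chil3, a chitinase-like protein that neutrophil precursors also make, and Ccr2, the receptor that recruits inflammatory monocytes, which was 6.25 and 6.61 in WT and 7.18, 7.46 and 7.23 in Sle1.3/E2-2het (0.86, SE 0.22, adjusted p = 0.0295). Without replicate 3 the test called more: 9 monocyte genes rose and 1 fell, and 8 of the eosinophil, basophil and mast cell genes rose and 1 fell. With quantile normalisation 5 monocyte genes rose, and 2 of the eosinophil, basophil and mast cell genes rose and 1 fell. Of 17 megakaryocyte and platelet genes tested, Thbs1 fell and none rose (median 0.35), while 6 were higher and 2 lower at an unadjusted p below 0.05. Of 17 haematopoietic progenitor genes, Csf2rb, the shared beta chain of the receptors for interleukins 3 and 5 and for GM-CSF, fell (-0.98, adjusted p = 0.0312, and 0.116 after quantile normalisation) and none rose.

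Tcf4 itself was 9.02 and 8.80 in WT and 8.18, 8.13 and 9.25 in Sle1.3/E2-2het and did not pass (-0.39, SE 0.30, adjusted p = 0.378, limma). Replicates 1 and 2 lay below both WT arrays, and replicate 3 lay above both. In replicates 1 and 2 alone the difference was -0.76 (adjusted p = 0.00539). After quantile normalisation it was -0.11 with all 3 (adjusted p = 0.818) and -0.35 with replicates 1 and 2 (adjusted p = 0.196). The whole-transcript array covers every cell that transcribes Tcf4, B cells among them. Which part of the gene is altered is not given in the sources used here, so this value does not check the haplodeficiency. Of the 7 E protein and Id genes tested, Id3 fell: it was 6.65 and 6.58 in WT and 5.42, 5.72 and 5.37 in Sle1.3/E2-2het (-1.11, SE 0.22, adjusted p = 0.00691). Id3 encodes an inhibitor that binds E proteins and keeps them from DNA. The E protein genes Tcf3 (-0.54, adjusted p = 0.172) and Tcf12 (-0.43, adjusted p = 0.235) did not pass, and Id2, the Id factor of conventional dendritic and innate lymphoid cells, was nearly level (0.03, adjusted p = 0.946). Of the 7, 4 fell in replicates 1 and 2 alone.

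Of the 19 plasmacytoid dendritic cell genes tested, 3 fell, none rose and 16 did not pass, with a median difference of -0.06 against -0.01 over all genes. The 3 were Spib, given above, Tlr9 and Ccr9. Tlr9, the endosomal receptor of unmethylated DNA, was 9.38 and 9.04 in WT and 7.82, 7.98 and 8.65 in Sle1.3/E2-2het (-1.06, SE 0.26, adjusted p = 0.0228). Ccr9, a gut-homing chemokine receptor, was 7.06 and 7.41 in WT and 6.09, 6.40 and 6.56 in Sle1.3/E2-2het (-0.88, SE 0.23, adjusted p = 0.0301). Spib and Tlr9 are also transcribed in B cells, and Ccr9 in some T cells. Siglech, the lectin that marks mouse plasmacytoid dendritic cells, was 6.97 and 7.07 in WT and 6.33, 6.25 and 6.71 in Sle1.3/E2-2het, below WT on every array, but it did not pass (-0.59, SE 0.22, adjusted p = 0.109). Tlr7, the endosomal receptor of single-stranded RNA, was 7.18 and 7.56 in WT and 7.47, 7.66 and 7.72 in Sle1.3/E2-2het (0.24, adjusted p = 0.471). Bst2 (0.06, adjusted p = 0.881) and Irf8 (-0.06, adjusted p = 0.89) were near level. With replicates 1 and 2 alone, 6 of the 19 fell, where 22.0% of all genes fell. The list median was -0.32 in that fit, against -0.36 and -0.415 in the brighter level groups of all genes. In replicate 3 the median was 0.26 above WT. After quantile normalisation of replicates 1 and 2 with WT, the list median was -0.02 and 5 members fell. With quantile normalisation of all 5 arrays Spib and Ccr9 passed (adjusted p = 0.0109 and 0.0414) and Tlr9 did not (adjusted p = 0.0586).

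**Figure D4:**
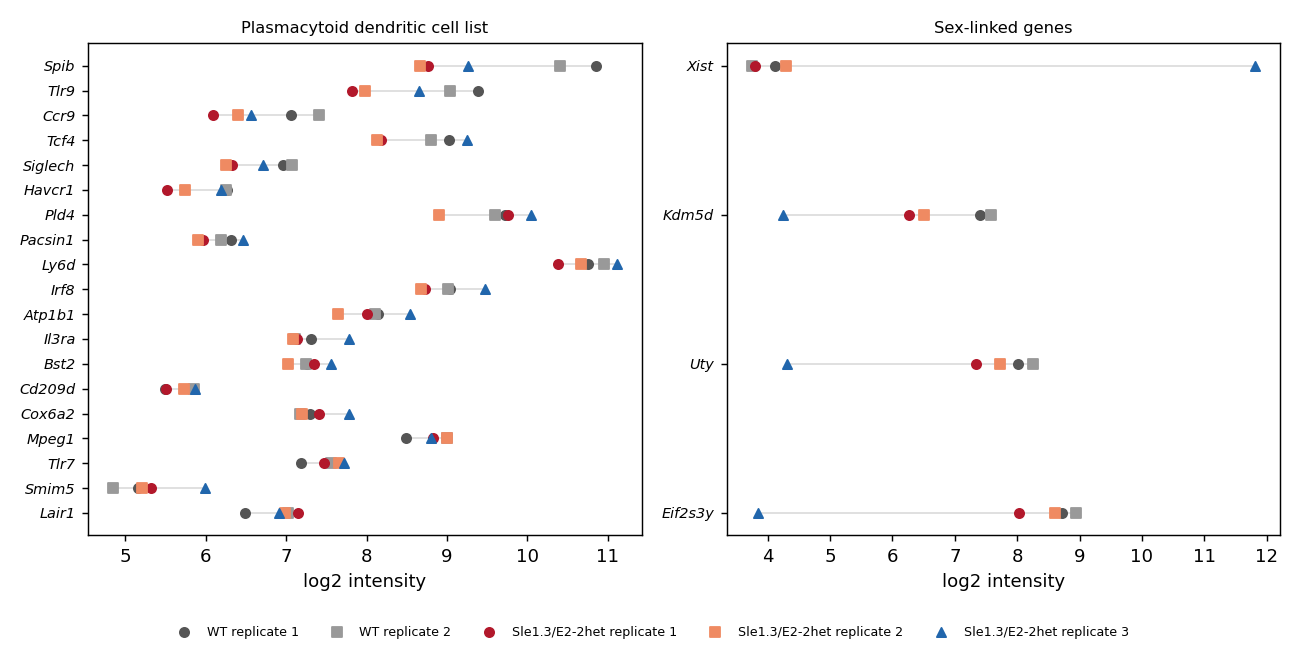
Log2 intensity on each of the 5 arrays for the plasmacytoid dendritic cell list (left) and the sex-linked genes (right), 1 point per array. Spib, Tlr9 and Ccr9 lie below WT on all 3 Sle1.3/E2-2het arrays, while Tcf4 lies below WT in replicates 1 and 2 and above it in replicate 3. Xist is high only in replicate 3 of these 5 arrays, where the Y-linked genes are lowest. The Y-linked genes also lie below both WT arrays in replicates 1 and 2, by less.

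Interferon-stimulated genes did not move as a group. Of 30 tested, 2 rose and 1 fell, with a median of 0.15. Rsad2, the antiviral protein viperin, was 6.47 and 6.82 in WT and 9.38, 8.20 and 7.41 in Sle1.3/E2-2het (1.68, SE 0.39, adjusted p = 0.0176), and its adjusted p was 0.079 after quantile normalisation. Oas1a, which makes the signal that activates RNase L, was 5.94 and 5.68 in WT and 6.63, 6.58 and 6.67 in Sle1.3/E2-2het (0.82, SE 0.21, adjusted p = 0.0311). The 3 Sle1.3/E2-2het arrays spanned nearly 2 units in Rsad2 and were almost equal in Oas1a. Cxcl10, a chemokine induced by interferon-gamma, fell: it was 9.65 and 9.29 in WT and 8.36, 8.35 and 9.05 in Sle1.3/E2-2het (-0.88, SE 0.25, adjusted p = 0.0464, and 0.104 after quantile normalisation). Ifit1, an interferon-induced RNA-binding protein, was 5.83 and 5.90 in WT and 6.25, 6.06 and 5.80 in Sle1.3/E2-2het (0.17, adjusted p = 0.611). Irf7, the factor that amplifies type I interferon, was 7.83 and 8.05 in WT and 7.91, 6.95 and 6.86 in Sle1.3/E2-2het (-0.70, adjusted p = 0.129). Of the 30, 4 rose and 2 fell in replicates 1 and 2 alone, and the fit without replicate 2 had 3 higher and none lower. After quantile normalisation 2 rose and none fell.

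The letters GAAANNGAA, the core of the interferon-stimulated response element, were searched on both strands of the 250 bases before each start. They occurred before both genes that rose and also before Cxcl10, the member that fell. In all they occurred before 10 of 21 list members with a window and before 8.18% of all genes, so most list members with the letters were not called. The windows of Rsad2 and Oas1a, from RefSeq on GRCm38.p6, are shown as those of the 2 genes that rose. Capitals mark the matches: in Rsad2 the match is on the opposite strand, and in Oas1a 2 matches overlap.
Rsad2, chr12:26456453-26456702, minus strand: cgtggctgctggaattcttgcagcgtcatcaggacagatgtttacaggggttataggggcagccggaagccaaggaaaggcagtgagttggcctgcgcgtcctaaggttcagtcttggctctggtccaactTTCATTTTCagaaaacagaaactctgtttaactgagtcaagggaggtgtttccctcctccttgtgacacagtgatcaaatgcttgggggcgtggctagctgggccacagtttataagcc
Oas1a, chr5:120907526-120907775, minus strand: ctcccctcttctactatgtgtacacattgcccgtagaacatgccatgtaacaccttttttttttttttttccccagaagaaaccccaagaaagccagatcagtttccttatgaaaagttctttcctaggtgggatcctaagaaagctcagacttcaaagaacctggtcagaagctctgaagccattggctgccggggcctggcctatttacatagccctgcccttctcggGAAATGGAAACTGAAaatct

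Genes of endosomal sensing fell more often than they rose on the deposited values only. Of 25 tested, 3 fell and none rose on all 5 arrays. Their median of -0.27 was near those of the brighter level groups of all genes (-0.24 and -0.28), and it was -0.0016 after quantile normalisation. Beside Tlr9, these were Irf5 and Traf6. Irf5, the factor that links Toll-like receptors to cytokine genes and is tied to lupus, was 8.96 and 8.72 in WT and 7.58, 7.59 and 7.97 in Sle1.3/E2-2het (-1.12, SE 0.22, adjusted p = 0.00773). Traf6, the ubiquitin ligase of the same pathway, was 8.22 and 8.44 in WT and 7.56, 7.21 and 7.70 in Sle1.3/E2-2het (-0.84, SE 0.23, adjusted p = 0.0347). After quantile normalisation Irf5 passed (adjusted p = 0.0292), Traf6 did not (adjusted p = 0.0778), and 1 member of the list fell and 1 rose. Of the 25, 9 fell and 1 rose in replicates 1 and 2 alone.

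Of 21 B cell genes tested, 1 fell and none rose (median -0.38). It was Tnfrsf13c, the BAFF receptor that keeps mature B cells alive, which was 10.71 and 10.47 in WT and 8.98, 9.19 and 10.18 in Sle1.3/E2-2het (-1.14, SE 0.30, adjusted p = 0.0311, and 0.0512 after quantile normalisation). In replicates 1 and 2 alone 11 of the 21 fell (median -0.55), where 22.0% of all genes fell, and in replicate 3 the median was 0.06 above WT. The list's median level lay in the range of the brightest level group of all genes on every array. That group had a median of -0.28, and of -0.415 in replicates 1 and 2. None of the 21 passed after quantile normalisation (median -0.23). Of 18 germinal centre genes tested, 3 fell and none rose (median -0.36). Rgs13, a brake on chemokine signalling in germinal centres, was 7.55 and 7.81 in WT and 5.86, 6.77 and 6.96 in Sle1.3/E2-2het (-1.16, SE 0.29, adjusted p = 0.0253). Bach2, which holds back plasma cell formation, was 9.51 and 9.15 in WT and 8.29, 7.74 and 8.89 in Sle1.3/E2-2het (-1.02, SE 0.29, adjusted p = 0.042), and Neil1, a DNA repair glycosylase, fell by 0.89 on the log2 scale (adjusted p = 0.0393). None of the germinal centre genes passed after quantile normalisation, and leaving out replicate 1 or replicate 2 left 1. Of the 18, 8 fell in replicates 1 and 2 alone. The list median was -0.40 in that fit, against -0.36 and -0.415 in the brighter level groups of all genes, and -0.18 after quantile normalisation. Of 18 plasma cell genes tested, Ell2, an elongation factor for secreted antibody RNA, fell (-0.77, adjusted p = 0.0471, and 0.0541 after quantile normalisation), and none rose. With replicates 1 and 2 alone 4 of the 18 plasma cell genes fell and 1 rose, shares near those of all genes, and none passed without replicate 1 or without replicate 2.

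None of 20 T cell genes tested passed on all 5 arrays with limma, and 5 were lower and none higher at an unadjusted p below 0.05 (median -0.27). The T cell genes with the smallest p were Cd5, a brake on receptor signalling, at -0.72 (adjusted p = 0.0625), and Cd3e, which was 10.05 and 10.06 in WT and 9.07, 8.85 and 9.78 in Sle1.3/E2-2het (-0.82, adjusted p = 0.0669). Of the 20, 11 fell in replicates 1 and 2 alone (median -0.52), and the median of replicate 3 was 0.23 above WT. In the brightest level group of all genes the median was -0.415 in replicates 1 and 2 and -0.28 with all 3. None of the 20 passed after quantile normalisation (median -0.02). Of 25 tested genes that mark follicular helper or activated T cells, 4 fell and none rose (median -0.37). Il10, an immunosuppressive cytokine, was 6.92 and 7.02 in WT and 5.60, 6.05 and 5.86 in Sle1.3/E2-2het (-1.13, SE 0.22, adjusted p = 0.00695). Il2ra, the high-affinity interleukin-2 receptor chain of regulatory T cells, was 8.68 and 8.62 in WT and 7.69, 7.35 and 8.02 in Sle1.3/E2-2het (-0.97, SE 0.24, adjusted p = 0.023). Eomes, a factor of cytotoxic lymphocytes, fell (-0.94, adjusted p = 0.0153), as did Tnfrsf18, a costimulatory receptor rich on regulatory T cells (-0.83, adjusted p = 0.0451, and 0.0728 after quantile normalisation). These genes lay below WT on all 3 arrays, and 16 members fell in replicates 1 and 2 alone and 3 after quantile normalisation. The list median was -0.62 in replicates 1 and 2, against -0.36 and -0.415 in the brighter level groups of all genes. It was -0.26 after quantile normalisation.

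Among 21 natural killer and cytotoxic granule genes tested, 1 rose and 3 fell (median -0.08). The 2 granzymes moved apart: Gzma was 6.10 and 6.65 in WT and 7.56, 7.85 and 8.09 in Sle1.3/E2-2het (1.46, SE 0.24, adjusted p = 0.00284), and Gzmk was 8.27 and 8.20 in WT and 6.92, 6.97 and 7.03 in Sle1.3/E2-2het (-1.26, SE 0.21, adjusted p = 0.00282). Both genes lie on chromosome 13. Both kept their call after quantile normalisation (adjusted p = 0.0101 and 0.0202). Il2rb, the receptor chain shared by interleukins 2 and 15, was 10.12 and 10.19 in WT and 9.05, 8.82 and 9.63 in Sle1.3/E2-2het (-0.98, SE 0.25, adjusted p = 0.0278), and the other member that fell was Eomes. Of the 21, 1 rose and 7 fell in replicates 1 and 2 alone, and 1 rose and 3 fell after quantile normalisation.

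Genes of antigen presentation and costimulation showed 3 falls and no rise among 26 tested (median -0.41). Icosl, the ligand by which B cells help T cells, was 8.31 and 8.14 in WT and 7.0, 7.18 and 7.73 in Sle1.3/E2-2het (-0.92, SE 0.24, adjusted p = 0.0329). Tap1, a peptide transporter for MHC class I, fell (-0.90, adjusted p = 0.0429), as did Pdcd1lg2, a ligand of the inhibitory receptor PD-1 (-0.80, adjusted p = 0.0355). None of the 26 passed after quantile normalisation or without replicate 1, and 15 fell in replicates 1 and 2 alone. The list median was -0.63 in replicates 1 and 2, against -0.415 in the brightest level group of all genes. It was -0.275 after quantile normalisation. Of 33 cytokine and chemokine genes tested, 1 rose and 3 fell. Ccl19, the stromal chemokine that draws T cells and dendritic cells into the white pulp, was 6.23 and 6.05 in WT and 7.29, 7.61 and 7.73 in Sle1.3/E2-2het (1.40, SE 0.22, adjusted p = 0.00217). Tgfb1, the immune-restraining growth factor, was 9.88 and 9.68 in WT and 8.81, 8.43 and 8.79 in Sle1.3/E2-2het (-1.10, SE 0.22, adjusted p = 0.00851). Il10 and Cxcl10 were the others that fell, and in replicates 1 and 2 alone 3 cytokine genes rose and 8 fell. After quantile normalisation 1 rose and 2 fell. Ccl19 was also the single member called among 22 stromal and endothelial genes.

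Some groups had no member past the test on all 5 arrays with limma. They were conventional dendritic cells (18 genes, of which 2 were higher and 1 lower at an unadjusted p below 0.05), the secretory pathway and unfolded protein response (29 genes, 1 higher and none lower) and exocrine pancreas (11 genes, 5 higher and none lower). Zbtb46, a factor of conventional dendritic cells, had a difference of -0.61 (adjusted p = 0.121), and Sec61b, a channel subunit of the endoplasmic reticulum, of 0.72 (adjusted p = 0.0908). Digestive enzyme genes serve as a check for pancreas taken with the spleen. Of 23 listed, 7 were below the filter, and the summed linear intensity of the 11 tested was 547 and 473 in WT and 658, 635 and 822 in Sle1.3/E2-2het, with a median level of 5.21 to 6.23 on the 5 arrays. Of 38 immediate early and dissociation genes, which tissue digestion can induce, Plk2 and the phosphatase gene Dusp5 (-0.87, adjusted p = 0.0395, and 0.0636 after quantile normalisation) fell and none rose (median -0.19). With replicates 1 and 2 alone, 12 of the 38 fell, where 22.0% of all genes fell. Their median in that fit was -0.418, against -0.415 in the brightest level group of all genes. In that fit 7 of the 29 secretory genes and 2 of the 18 conventional dendritic cell genes fell, shares near or below that of all genes, and 3 pancreas genes and 1 conventional dendritic cell gene rose. Of 22 Fc receptor, SLAM and Ifi200 genes of distal chromosome 1, the chromosome that carries Sle1, Cr1l fell and none rose (median -0.06).

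Replicate 3 differed from replicates 1 and 2 in which genes lay apart from WT. Of the 3290 genes lower in replicates 1 and 2, replicate 3 was below both WT arrays in 2378, between them in 555 and above both in 357. Of the 1468 genes higher in replicates 1 and 2, it was above both WT arrays in 1407. Genes called in replicates 1 and 2 but not with all 3 included Srsy, a Y-linked gene (7.11 and 6.57 in WT and 9.42, 9.83 and 5.71 in Sle1.3/E2-2het), and Macrod2, an ADP-ribose hydrolase gene (7.87 and 6.80 in WT and 8.94, 9.44 and 6.78 in Sle1.3/E2-2het). Srsy belongs to a Y-linked repeat family whose copies may share probes. Ackr1, a chemokine-binding receptor of red cells and venules, was 5.12 and 4.50 in WT and 6.15, 6.34 and 4.86 in Sle1.3/E2-2het. In the other direction were Tigit, an inhibitory receptor of T cells (9.02 and 8.88 in WT and 7.64, 7.62 and 8.69 in Sle1.3/E2-2het), and Lrrc32, the receptor that holds latent TGF-beta on regulatory T cells (7.97 and 7.46 in WT and 6.49, 6.03 and 7.46 in Sle1.3/E2-2het). Tnfrsf4, the costimulatory receptor OX40, was 8.97 and 8.84 in WT and 7.76, 7.27 and 8.69 in Sle1.3/E2-2het. In these 3 T cell genes replicate 3 lay close to WT, and the adjusted p in replicates 1 and 2 alone was 8.4e-05 for Tigit, 0.000145 for Lrrc32 and 0.000118 for Tnfrsf4. The other genes that the rule named here were Cd59a, Slfn4 and AY036118, which were higher, and Sostdc1, Tent4a and Klf13, which were lower. Of genes where replicates 1 and 2 nearly agreed, Smad6, an inhibitor of BMP signalling (4.55 and 4.48 in WT and 4.89, 4.68 and 6.57 in Sle1.3/E2-2het), and the ligand gene Wnt6 (5.16 and 4.86 in WT and 4.92, 4.68 and 6.54 in Sle1.3/E2-2het) stood out upwards in replicate 3. Tlcd4 stood out downwards (4.43 and 4.20 in WT and 6.57, 6.39 and 4.93 in Sle1.3/E2-2het), although it was called higher on all 5 arrays (1.65, adjusted p = 0.0135, and 0.205 after quantile normalisation). Labelled sex, intensity floor and animal differ together in replicate 3 and cannot be told apart.

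**Figure D5:**
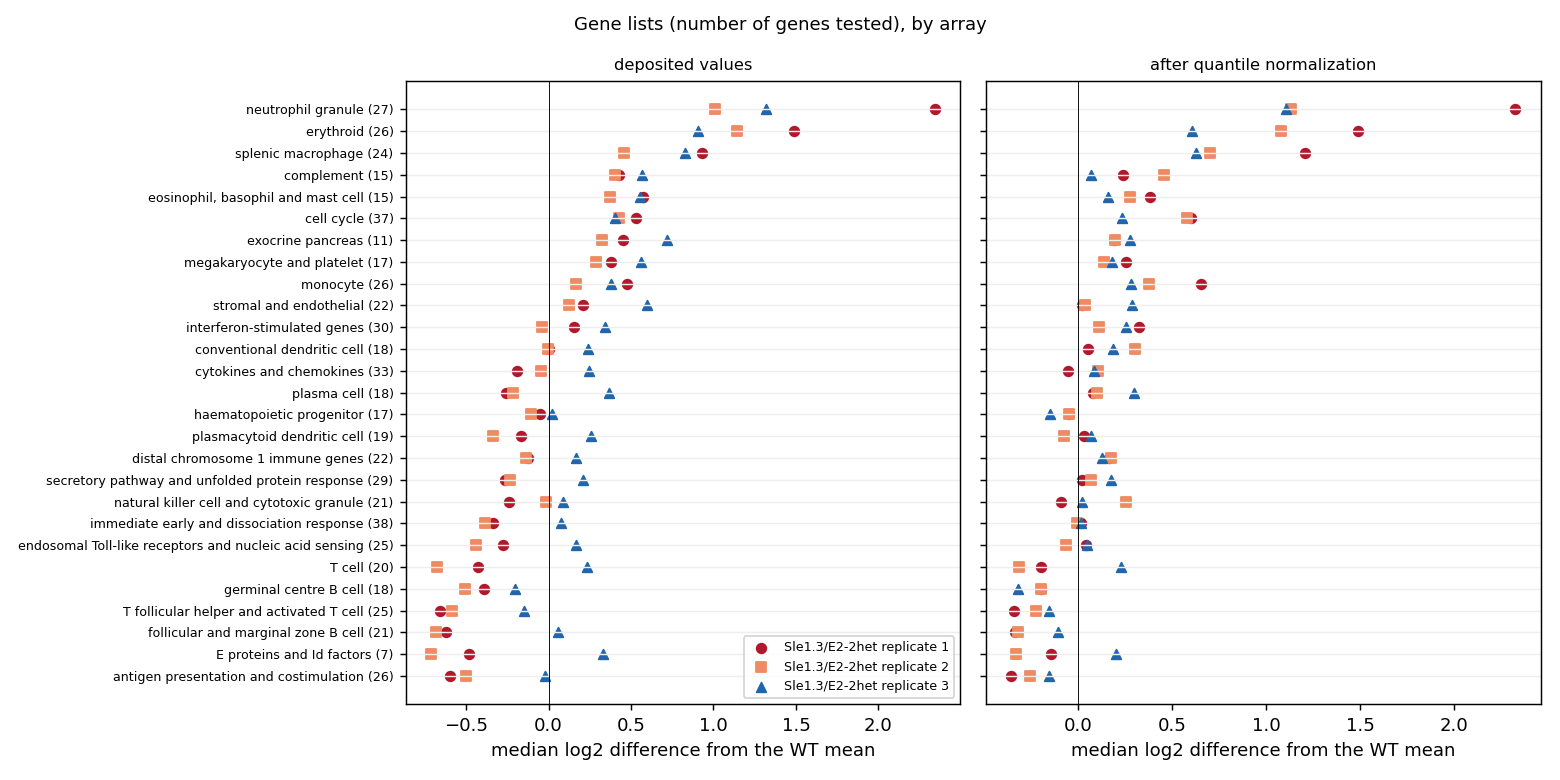
Median log2 difference from the WT mean of each gene list on each Sle1.3/E2-2het array, for deposited values and after quantile normalisation, with the number of genes tested in brackets. Neutrophil, erythroid, macrophage and cell cycle lists lie above 0 on all 3 arrays under both scalings. B cell and T cell lists lie below 0 in replicates 1 and 2 and above 0 in replicate 3 on deposited values.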

How the data were processed

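The authors deposited 1 table of linear intensity values for 35556 probe sets, with 1 array per mouse. The submitters' processing notes name Affymetrix Expression Console and RMA for the deposited values; versions, annotation and build are not given in the sources used here, and no detection call came with the table. Array distributions differ, so the deposited intensity values do not share 1 distribution. The number of arrays limits the precision. Per the series' design text the arrays are of separate mice.

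Here log2 of the deposited intensity was taken. Of the probe sets, 21789 had 1 gene symbol, 1621 several and 12146 none listed, and only the first were used. Where a gene had several probe sets the brightest was taken, which gave 19938 genes, and the 14953 above the 25th percentile (mean log2 of 4.97) were tested. Of the 19938 genes, 19856 matched RefSeq (GRCm38.p6) by Entrez identifier, from which chromosomes and sequences come. Groups were compared by limma 3.58.1, run in R 4.3.3 (two-sided, lmFit then eBayes, group as the only term, Benjamini-Hochberg adjustment over 14953 genes). The script was tested on simulated data.

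The genes named were up to 12 in each direction with the largest difference among non-overlapping calls, up to 6 called members of each list (the 2 of smallest p where none was called), up to 6 in each direction called in replicates 1 and 2 only, up to 5 where replicate 3 stands apart, up to 4 microRNA genes, Tcf4 and the sex-linked genes. Genes outside it (Elane, Mpo, Gata1, Kel, Klf1, Tfrc, Ermap, Spic, Top2a, Siglech, Tlr7, Bst2, Irf7, Irf8, Ifit1, Tcf3, Tcf12, Id2, Ms4a1 and the families of the closing section) were chosen after their values were seen. The comparison, lists and rule were chosen with earlier results of these data known. Alternatives were each array left out, the array number as a block, median centring, quantile normalisation, an added constant, a common floor, other filters and probe set summaries, limma-trend and array weights.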

Additional observations from a re-analysis of the deposited data

How the results depend on the processing

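Counts of genes higher and lower (634 and 483) moved with the scaling and the arrays used. They were 1468 and 3290 in replicates 1 and 2 alone, 1684 and 1102 after median centring, 431 and 299 after quantile normalisation, 296 and 291 with log2(intensity + 16), 710 and 276 with no filter, 275 and 537 with a stricter filter and 2116 and 3867 with array weights, where replicate 3 had a weight of 0.221. Quantile normalisation of replicates 1 and 2 with WT, chosen after seeing the data, gave 908 and 730. Over the fits that left out 1 array each, higher genes ranged from 2 to 1468 and lower genes from 0 to 3290, with the lowest counts when a WT array was left out. The array number as a block gave 2033 and 4126. The block takes replicate 3, which has no WT partner, out of the comparison. Same-numbered arrays had correlated deviations (r = 0.156 in both pairs). The deviations of the 2 WT arrays mirror each other, so the 2 values are not separate observations. With 2 pairs and no label the arrays share only a number. Common floor, median of probe sets and limma-trend kept both counts within 1.5 times.

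Of 106 named genes, 78 were called, and none of these changed direction under any alternative run. That count is not a separate check of the calls. The alternatives refit the same arrays or part of them, and 1116 of the 1117 calls had groups that did not overlap. A change of direction in a called gene was therefore hardly possible. Uncalled genes that changed direction were Wnt6 (-0.21 in replicates 1 and 2 alone and with the block, -0.065 with array weights, up to 0.72 without replicate 2, -0.50 in replicates 1 and 2 after quantile normalisation), Ofd1 (from -0.85 without replicate 3 to 0.042 without replicate 2), and, in replicates 1 and 2 after quantile normalisation, Olfr319 (-0.10), Smad6 (-0.037) and Xist (-0.19). The cause was not tested. Dim genes near the floor are the least well measured.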

Other observations

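Histone genes of the H1f, H2ac, H2bc, H3c and H4c families were chosen after their values were seen. Of 26 tested with limma, 6 were higher, 1 was lower and 19 did not pass on all 5 arrays (median 0.53 against -0.01 over all genes). In replicates 1 and 2 alone 11 were higher and 1 lower, and 7 were higher and 1 lower after quantile normalisation. H1f1, a linker histone gene, was 7.88 and 8.08 in WT and 10.96, 9.97 and 9.76 in Sle1.3/E2-2het (2.25, SE 0.30, adjusted p = 0.000763). H2bc3, a core histone gene, was 7.43 and 8.28 in WT and 9.29, 9.31 and 9.33 in Sle1.3/E2-2het (1.46, SE 0.25, adjusted p = 0.00334). H3c15 was the member that fell (-0.99, adjusted p = 0.0414). Histone genes are near-identical copies, so a value may belong to a relative.

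Sensory receptor genes were left out of a count along the chromosomes, and 5.7% of the remaining 14505 genes were called. Among stretches of 10 Mb with 20 or more such genes, the largest shares called were on chromosomes 16 and 3. On chromosome 16, at 80 to 90 Mb, 5 of 24 genes were higher and none lower. On chromosome 3, at 10 to 20 Mb, 3 of 20 genes were higher and 1 lower. The next was 1 stretch of chromosome 13, chosen after the values were seen, with 10 of 52 genes lower and none higher (19.2% called). The pheromone receptor pseudogene Vmn2r-ps104, which was higher, lies in the same stretch. Of the 10, 6 were Rsl1, Zfp456, Zfp729a, Zfp729b, Zfp748 and Zfp87, zinc-finger repressor genes with close copies that may share probes. Rsl1, which represses male-biased liver genes, was 8.15 and 8.11 in WT and 6.65, 6.70 and 6.76 in Sle1.3/E2-2het (-1.43, SE 0.21, adjusted p = 0.0014). The others were Cdc14b, Ercc6l2, Prxl2c and Ptch1. After quantile normalisation Zfp729a, Zfp748 and Prxl2c did not pass (adjusted p = 0.13, 0.107 and 0.0671). Tmem267, Plk2, Gzma and Gzmk also lie on chromosome 13, in another stretch, where 3 of 43 genes were higher and 4 lower. The share called on chromosomes 1 and 7 was 5.87% and 6.5%, but it varied along them. In the stretches counted on chromosome 1 it ran from 0.0% to 12.7%. The latter was at 180 to 190 Mb, with 1 higher and 6 lower of 55 genes. On chromosome 7 it ran from 0.0% to 10.9%. The latter was at 10 to 20 Mb, with 3 higher and 8 lower of 101 genes.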
